A study of Mus musculus with 3 samples.

Results

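The genes that write and read DNA methylation were examined in the embryonic region of wild-type mouse embryos at the early headfold (EHF) stage, the stage at which the node begins to drive fluid flow. They were the methyltransferases *Dnmt1*, *Dnmt3a*, and *Dnmt3b*, their cofactors *Dnmt3l* and *Uhrf1*, and the methyl-CpG-binding domain genes *Mbd1*, *Mbd2*, *Mbd3*, and *Mbd4*, chosen by symbol from a table of 30854 gene symbols. All 9 were present in the table. RNA from 3 samples, named replicates 1, 2, and 3, was hybridized to 3 Illumina bead arrays. They form a single group of untreated wild-type embryos, of strain Cd-1 in the labels and ICR in the study's methods, cut at the border between embryonic and extraembryonic tissue, so no genotypes, stages, or tissues could be compared. The labels do not say whether an array held 1 embryo or a pool, and the p-values below therefore measure only the spread between these 3 samples, which may be technical.

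Cytosine methylation at CpG sites is laid down on both strands by the de novo enzymes encoded by *Dnmt3a* and *Dnmt3b* and copied to the new strand after replication by the maintenance enzyme encoded by *Dnmt1*. UHRF1 recognises hemimethylated sites and brings DNMT1 to them, whereas DNMT3L has no activity of its own and stimulates the de novo enzymes. Proteins with a methyl-CpG-binding domain bind methylated sites and recruit repressors of transcription. In the mouse, methylation is largely erased before implantation and restored in the epiblast around gastrulation, the period just before the stage studied here.

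Of the 9 genes, 5 were detected on all 3 arrays, namely *Dnmt1*, *Dnmt3b*, *Dnmt3l*, *Mbd3*, and *Mbd4*, whereas *Dnmt3a* and *Mbd2* were detected on none. *Uhrf1* and *Mbd1* were each detected on 1 array. The detection p ranks a signal among the negative controls of its array. A symbol was taken as detected where this p was under 0.01, which 20.6% of all symbols met on all 3 arrays, and 33.0% on at least 1. The same 5 genes were called when any 1 array was left out, and at a threshold of 0.05, which 24.7% of all symbols met on every array. In a second readout, background was removed, the arrays were quantile normalized, and a background level was subtracted from each array. This was the lowest level among symbols of 1 probe with a detection p above 0 and under 0.01, and symbols averaged over several probes could be detected below it. A symbol of 1 probe thus lies at or above this level on an array exactly where its detection p is under 0.01. For *Dnmt1*, *Mbd2*, *Mbd3*, and *Mbd4*, each with 1 probe, this readout therefore largely restates the detection call and is no separate evidence. A one-sided limma test called 6 of the 9 genes, *Uhrf1* being added, where 25.7% of all symbols were called. Levels below are given on the log2 scale above that background, with a standard error of 0.15 that the fit made the same for every symbol. Because this treats the spread as known, the largest adjusted p over the alternative settings is quoted in place of the much smaller p of the fit itself. Levels of different probes depend on how well each hybridizes, so genes were compared with background and not with each other.

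**Figure D1:**
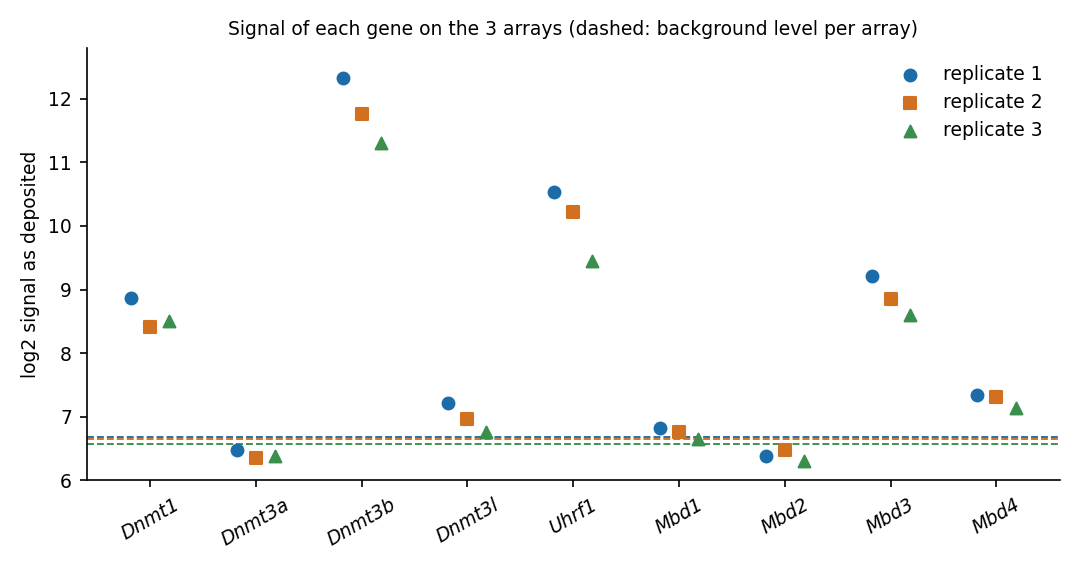
Deposited log2 signal (vertical axis) of the 9 genes (horizontal axis) on replicates 1, 2, and 3, with a dashed line per array at its background level, 6.69, 6.66, and 6.58. *Dnmt3a* and *Mbd2* lie under the lines on every array, and *Mbd1* lies just above them. *Dnmt3l* lies above them too, but close to its line on replicate 3, at 6.77. *Dnmt1*, *Dnmt3b*, *Uhrf1*, *Mbd3*, and *Mbd4* lie clear of the lines.

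The arrays were alike in depth, with medians of 43 to 44 beads per symbol, and their median deposited log2 signals lay between 6.42 and 6.57. Between 7191 and 9015 symbols were detected per array. As a check of the labelled tissue, 9 of 14 embryonic region markers were detected on all arrays, *T*, *Otx2*, *Hoxb1*, and *Pou5f1* among them, and the other 5, which include *Foxa2*, *Hesx1*, *Noto*, and *Six3*, were not. Markers of visceral endoderm were detected for 13 of 14 genes. In the study, cells of this layer in the embryonic region were by then scattered among definitive endoderm. One of the 13 was *Apoc2*, at 0.65 above background. By in situ hybridization at headfold stages, the study saw *Apoc2* only in extraembryonic visceral endoderm. Whether such tissue was part of the samples was not tested. Markers of extraembryonic ectoderm and trophoblast were detected for 4 of 12, namely *Cdx2*, *Rhox5*, *Ets2*, and *Tfap2c*, at 4.55, 4.37, 3.54, and 2.21 above background, whereas *Ascl2*, *Elf5*, and *Eomes* were detected on no array. No blood marker was detected on any array, out of 6, and limma called 0 of them, with 0 at an unadjusted p under 0.05. Of the 8 markers listed for primordial germ cells, 3 were detected on all arrays, *Ifitm3*, *Tfap2c*, and *Dnd1*. Of these, *Tfap2c* is also counted among the trophoblast markers. A further 4 were detected on no array, *Dppa3*, *Nanos3*, and *Prdm1* among them. In RNA from a whole region, fewer cells of a type and less RNA per cell cannot be told apart.

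Among the methyltransferases, the data showed the de novo gene *Dnmt3b* and the maintenance gene *Dnmt1* well above background, *Dnmt3l* slightly above it, and *Dnmt3a* at background. *Dnmt3b*, measured by 2 probes, had deposited log2 signals of 12.33, 11.76, and 11.30 on replicates 1, 2, and 3, with a detection p of 0 on each. Every array was high, and the lowest value exceeded the background of its array by 6.56 after normalization. The mean level was 6.92 above background (SE 0.15, n = 3). It stayed between 5.15 and 7.55 over 9 alternative settings, with a largest adjusted p from limma of 0.000186.

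*Dnmt1* has 1 probe, and its log2 signals were 8.87, 8.41, and 8.50, each with a detection p of 0. All 3 arrays lay clear of background, replicate 2 being the lowest. Its mean level was 3.46 above background (SE 0.15, n = 3), with single arrays at 3.63, 3.20, and 3.56. Over 9 alternatives it ranged from 1.96 to 4.09, with a largest adjusted p from limma of 0.000256.

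*Dnmt3l*, known from germ cells and embryonic stem cells, had log2 signals of 7.22, 6.97, and 6.77 from 2 probes, with a detection p of 0 on each array. All values were low but above the background of their arrays, by 1.25, 0.88, and 0.65 after normalization. The mean level was 0.93 (SE 0.15, n = 3), and it passed the threshold under all 9 alternatives, at 0.34 to 1.56 above background with a largest adjusted p from limma of 0.0217. Of the extraembryonic ectoderm and trophoblast markers given above, 4 of 12 were detected on all arrays and 6 on none, *Ascl2*, *Elf5*, and *Eomes* among them. The summed linear intensity of all 12 markers, undetected ones included and not normalized between arrays, was 3384, 3184, and 2020 on replicates 1, 2, and 3. Their part in the *Dnmt3l* signal was not tested.

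*Dnmt3a* gave log2 signals of 6.48, 6.36, and 6.38 from 3 probes, with detection p-values of 0.840, 0.984, and 0.457. No array reached its background level, and the mean lay at -0.62 relative to it. In none of 8 alternatives did limma call it, so a signal was not detectable with these probes, which does not show that the transcript was absent. An average over 3 probes can also hide 1 probe above background. The sum of the probes' p-values, recovered from the combined value, was 2.01, 2.54, and 1.44, a mean of 0.48 to 0.85 per probe. As a p is at most 1, the sums on replicates 1 and 2 leave no probe under 0.01. On replicate 3 the sum does not exclude 1 such probe.

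The annotated promoters of these genes differ in the CpG sites that methylation acts on, and those of the detected methyltransferase genes are printed here to show that difference, as the 250 bases before an annotated start in RefSeq (GRCm38.p6), with each CpG in capitals. The single *Dnmt3b* start (chr2:153649199-153649448, plus strand) follows 21 CpGs, an observed over expected ratio of 0.61, whereas the first of 3 *Dnmt3l* starts (chr10:78042037-78042286, plus strand) follows 5 CpGs, a ratio of 0.27. RefSeq lists 3 starts for *Dnmt1*. The first in the direction of transcription (chr9:20959889-20960138, minus strand) follows 2 CpGs, a ratio of 0.13. The second (chr9:20952980-20953229, minus strand), not printed, follows 7, a ratio of 0.38. The last (chr9:20952624-20952873, minus strand) follows 26, a ratio of 0.89. The arrays do not tell which start was used.
Dnmt3b: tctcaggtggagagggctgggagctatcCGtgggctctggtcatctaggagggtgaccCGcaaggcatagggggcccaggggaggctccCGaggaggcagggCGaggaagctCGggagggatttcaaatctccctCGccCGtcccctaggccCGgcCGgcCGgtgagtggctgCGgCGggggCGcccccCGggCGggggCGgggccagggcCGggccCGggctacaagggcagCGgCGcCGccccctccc
Dnmt3l, first start: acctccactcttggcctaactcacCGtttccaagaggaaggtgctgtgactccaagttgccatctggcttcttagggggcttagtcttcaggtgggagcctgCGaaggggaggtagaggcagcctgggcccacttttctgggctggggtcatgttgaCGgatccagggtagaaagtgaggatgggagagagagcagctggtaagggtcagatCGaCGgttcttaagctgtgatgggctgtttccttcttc
Dnmt1, first start: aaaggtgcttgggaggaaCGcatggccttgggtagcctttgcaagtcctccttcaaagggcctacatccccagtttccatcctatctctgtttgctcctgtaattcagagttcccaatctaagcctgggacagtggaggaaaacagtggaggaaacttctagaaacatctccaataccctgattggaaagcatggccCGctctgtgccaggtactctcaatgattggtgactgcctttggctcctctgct
Dnmt1, last start: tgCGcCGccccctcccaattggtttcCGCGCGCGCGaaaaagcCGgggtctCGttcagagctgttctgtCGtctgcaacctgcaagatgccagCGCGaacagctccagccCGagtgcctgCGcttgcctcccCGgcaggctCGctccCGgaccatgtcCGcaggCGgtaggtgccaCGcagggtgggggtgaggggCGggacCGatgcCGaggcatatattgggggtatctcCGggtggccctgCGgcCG

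*Uhrf1*, the hemimethylated DNA reader that recruits DNMT1, gave a high signal without a detection call on every array. Its log2 signals were 10.54, 10.22, and 9.45 on replicates 1, 2, and 3, and its detection p-values were 0.374, 0.0644, and 0.00678. The signal was far above background on each array, replicate 3 being the lowest, and only that array passed the detection threshold. After normalization the mean level was 5.14 above background (SE 0.15, n = 3), with single arrays at 5.51, 5.25, and 4.64. Over 9 alternatives it stayed between 3.44 and 5.76 with a largest adjusted p from limma of 0.000418. The symbol is an average of 2 probes, and its detection p corresponds to a sum of the probes' p-values of 0.864, 0.359, and 0.116, whole numbers of steps of 1 in 936 (809, 336, and 109). Thus at least 1 of the 2 probes had a p of 0.43 or more on replicate 1, although the mean signal was high. On every array, at least 1 of the 2 probes must also have had a signal at or above the high average. The signal of each probe is not given in the table, so which of the 2 was bright could not be told.

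**Figure D2:**
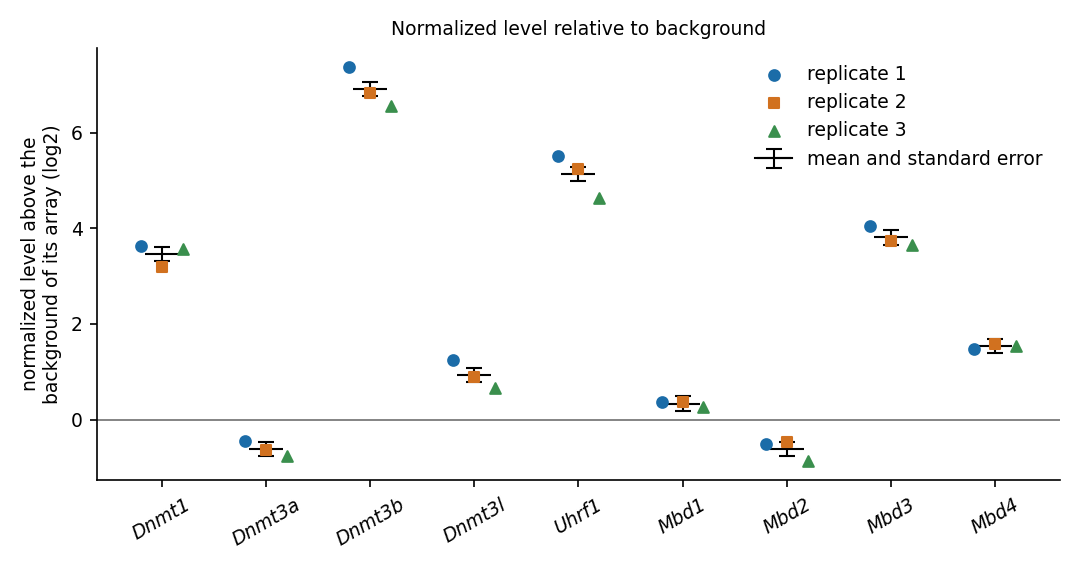
Normalized log2 level above the background of the same array for the 9 genes, with single arrays as coloured points and the mean with the limma standard error (0.15) in black; the line at 0 is background. *Dnmt3b* and *Uhrf1* lie above 4 on all arrays, *Dnmt3l* between 0.65 and 1.25, and *Dnmt3a* and *Mbd2* below 0.

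**Figure D3:**
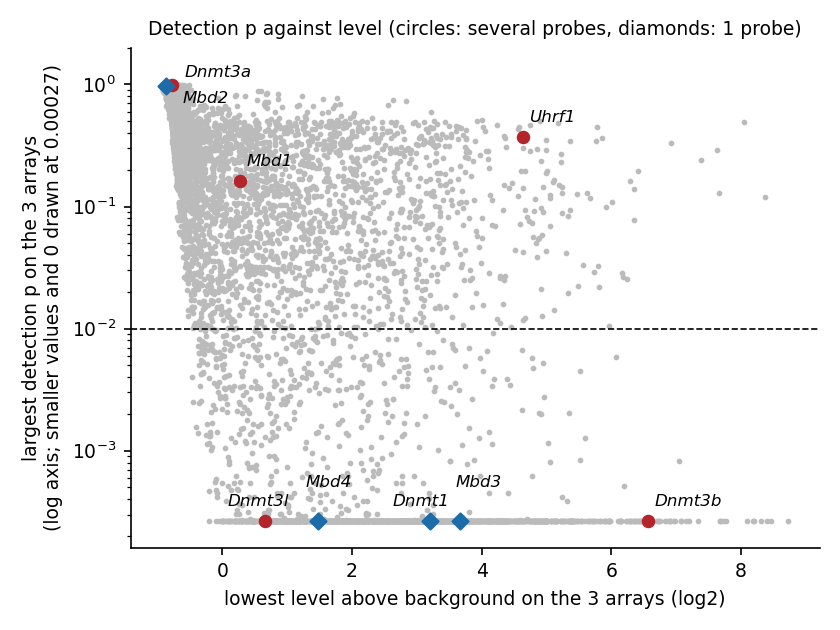
Largest detection p over the 3 arrays (vertical log axis, threshold of 0.01 dashed) against the lowest level above background (horizontal axis, log2), with symbols of several probes in grey, the 9 genes labelled (circles for several probes, diamonds for 1), and p-values of 0 drawn at the foot of the axis. *Uhrf1* sits at a lowest level of 4.64 and a largest p of 0.374, while the 5 detected genes lie at the foot of the plot.

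Among the methyl-CpG-binding domain genes, *Mbd3* and *Mbd4* were above background, *Mbd1* was at its edge, and *Mbd2* was at background. *Mbd3* encodes a subunit of the NuRD corepressor complex and binds methylated CpG weakly. Its log2 signals were 9.21, 8.86, and 8.60 from 1 probe, with a detection p of 0 on each array. All arrays were high, and the mean level was 3.82 above background (SE 0.15, n = 3), with a largest adjusted p from limma of 0.000275 over 9 alternatives and a range of 2.25 to 4.44.

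*Mbd4* encodes a glycosylase that removes thymine from mismatches left by deamination of methylated cytosine. It had log2 signals of 7.34, 7.32, and 7.14 from 1 probe, each with a detection p of 0. The arrays lay close together, at 1.48, 1.59, and 1.55 above background, with a mean of 1.54 (SE 0.15, n = 3). Over 9 alternatives the level was 0.63 to 2.16, with a largest adjusted p from limma of 0.000364.

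*Mbd1*, whose protein binds methylated CpG and, through CXXC zinc fingers, unmethylated CpG, had log2 signals of 6.83, 6.77, and 6.65. Its detection p-values were 0.0158, 0.00259, and 0.163, so replicate 2 alone passed. The level was 0.33 above background (SE 0.15, n = 3) with an adjusted p from limma of 0.0569, which did not pass. It passed under 5 of 9 alternatives, with adjusted p-values from 0.000201 to 0.334, and without replicate 3 it was called at an adjusted p of 0.00384. *Mbd2*, another reader that joins NuRD, had log2 signals of 6.39, 6.49, and 6.31 from 1 probe and detection p-values of 0.970, 0.354, and 0.843. It lay below background on every array, by a mean of -0.62, and was called in none of 8 alternatives.

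The members also differed in how well their levels repeated between arrays. Spread was taken from normalized levels before background was subtracted, and that background was 4.68, 4.81, and 5.08 on replicates 1, 2, and 3. It therefore differs from the spread of the levels above background. The SD of the normalized level had a median of 0.15 over the 9 genes, beside 0.17 over the 6357 symbols detected on all arrays and 0.10 over all symbols. Over the 5 detected members it was 0.23. *Dnmt1* had the largest SD of the 9 after quantile normalization, 0.32, above that of 84.7% of detected symbols. Before subtraction, its replicate 2 lay at -0.47 and replicate 3 at 0.48 relative to the mean of the other arrays. Above background, *Dnmt1* lay at 3.63, 3.20, and 3.56, so replicate 3 was not the highest on that scale. The standard error over the beads of its probe was 0.13 on the same scale, which covers noise within an array and not differences between samples. *Mbd3* had an SD of 0.10 and *Mbd4* of 0.23, although the *Mbd4* arrays lay at 1.48, 1.59, and 1.55 once background was subtracted. *Uhrf1* was lower on replicate 3, by -0.41, and *Dnmt3b* was higher on replicate 1, by 0.41, relative to the mean of the other arrays. With median scaling in place of quantile normalization, the SD became 0.28 for *Dnmt1*, 0.32 for *Mbd3*, 0.40 for *Dnmt3l*, 0.50 for *Dnmt3b*, 0.56 for *Uhrf1*, and 0.11 for *Mbd4*. The order of the genes by spread thus depended on the scaling, and *Dnmt1* was then below *Mbd3*. The summed linear intensity of the 14 visceral endoderm markers, not normalized between arrays, was 15279, 16322, and 7836 on replicates 1, 2, and 3. The same sum was 5074, 3887, and 3229 for the 14 embryonic region markers, and 8289, 6015, and 4480 for the 9 members. Each of these sums was lowest on replicate 3. The part of visceral endoderm in the differences between arrays was not tested.

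**Figure D4:**
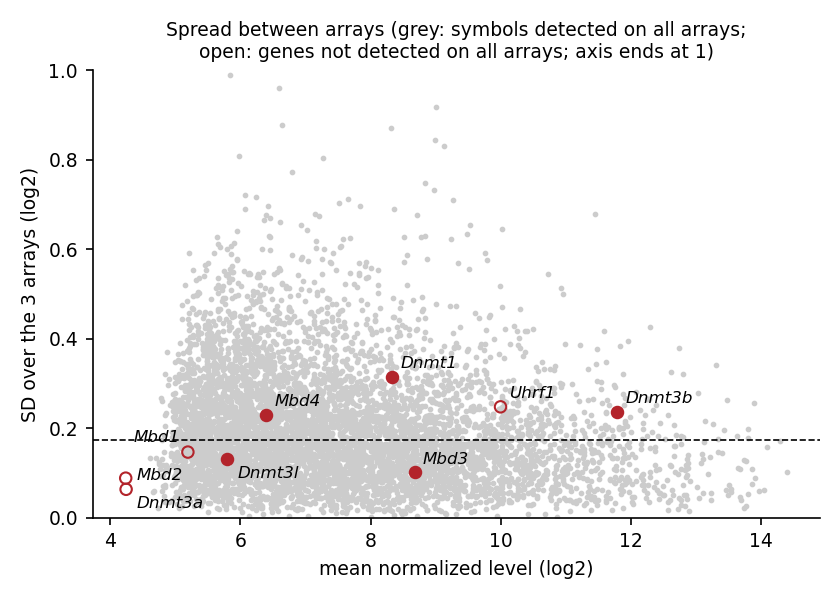
SD of the normalized log2 level over the 3 arrays (vertical axis) against the mean level (horizontal axis), with symbols detected on all arrays in grey, their median SD of 0.17 dashed, detected members filled, and the other members open; 2 symbols with an SD above 1 are outside the axis. *Dnmt1*, *Dnmt3b*, and *Mbd4* lie above the dashed line, and *Dnmt3l* and *Mbd3* below it.

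Genes related to the methylation machinery, its partners and some of its target genes, were detected in part. Of 69 symbols in 6 lists, the germline targets included, 24 (34.8%) were detected on all 3 arrays, beside 20.6% of all symbols. Limma called 37 of the 69, where it called 25.7% of all symbols. With no order read between lists, since their probes differ, the median level above background was 2.83 for NuRD, 1.39 for partners, 1.35 for oxidation and repair, 1.08 for other CpG-binding proteins, and 0.76 for methyl donor supply, beside -0.47 for all symbols. Subunits of NuRD, the complex that contains *Mbd2* or *Mbd3*, were detected for 7 of 9 symbols, including *Rbbp7*, *Hdac2*, *Mta3*, and *Chd4*, at 4.82, 4.27, 3.31, and 2.98 above background. *Chd3* and *Rbbp4* did not meet the threshold on all arrays.

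Among other CpG-binding proteins, 3 of 10 were detected (30%, beside 20.6% of all symbols). They included *Uhrf2*, the paralog of *Uhrf1*, whose deposited log2 signals averaged 9.70 ± 0.36 (SD, n = 3), and *Kdm2a*, a demethylase that binds unmethylated CpG, listed as *Fbxl11*, whose signals averaged 9.04 ± 0.34 (SD, n = 3). *Cxxc1*, *Kdm2b*, *Mbd5*, and *Mbd6* were not detected on all arrays, although limma placed *Cxxc1* 4.98 and *Kdm2b* 1.84 above background.

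Of 14 partners and relatives of the methyltransferases, 6 were detected (42.9%, beside 20.6% of all symbols). They included *Trim28*, the corepressor that protects imprints, at 7.40 above background, *Usp7*, which deubiquitinates UHRF1 and DNMT1, at 3.53, the histone methyltransferase gene *Setdb1* at 2.62, and *Pcna*, the replication clamp, at 1.51. *Cbx3*, *Cbx5*, *Dppa3*, and *Ehmt2* were not detected on all arrays. Of 13 genes of oxidation and repair of methylated cytosine, 5 were detected (38.5%). Among them were *Parp1* at 5.99, *Tet1* (listed as *Cxxc6*) at 2.99, *Gadd45g* at 2.53, and *Apex1* at 1.94 above background. *Apobec1*, *Gadd45b*, and *Smug1* were not detected, although limma placed *Smug1* 1.35 above background. Named after their values were seen, *Tet2* and *Tet3* lay at -0.43 and -0.57 relative to background, and *Tdg*, which excises oxidised methylcytosine, had no detection call although its average over 2 probes was 2.17 above background.

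Enzymes that supply S-adenosylmethionine, the methyl donor, were detected for 3 of 12 genes (25%), near the 20.6% of all symbols. These 3 were *Mat2a* at 5.27, *Shmt1* at 3.23, and *Mtr* at 0.22 above background. *Mtr* was not called by limma, with an adjusted p of 0.278. *Ahcy*, *Bhmt*, *Gnmt*, and *Mat1a* were not detected on all arrays, *Ahcy* having a detection call on 1 array and a level of 3.04. Of 11 germline genes known to be silenced by promoter methylation, none was detected on all arrays, and limma called 0, with 0 at an unadjusted p under 0.05. *Dazl* and *Hormad1* were detected on no array, and *Asz1* and *Ddx4* on 1 array each. Their median level was -0.53 relative to background, beside -0.47 for all symbols.

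Promoter entries in RefSeq (GRCm38.p6) matched 7 of the 9 genes, and the entries of *Mbd1* and *Mbd2* were not analysed here. Taking the highest ratio among a gene's starts, 6 of the 7 had a CpG observed over expected ratio of at least 0.6 in the 250 bases before the start, *Dnmt3l* being the exception. Of 3363 genes with an entry that were detected on all arrays, 77.6% reached this ratio, and of 9363 that were not, 43.2% did. *Dnmt3a*, not detected, had the highest ratio of the 7, 1.09. The letters TTTCCCGC and TTTGGCGC, searched on both strands as forms of the E2F site of replication genes, lay in the window from 250 bases before to 50 after the start in 1.80% of genes. Among genes detected on all arrays the share was 3.48%. Of the 7 members, *Dnmt1* alone held them, at 34 bases after its last start, shown with the match in capitals because it is the only one (chr9:20952574-20952601, minus strand). This is a description of letters and not of a bound site.
Dnmt1, last start: gcggggcagcgTTTGGCGCgggctgtgc

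**Figure D5:**
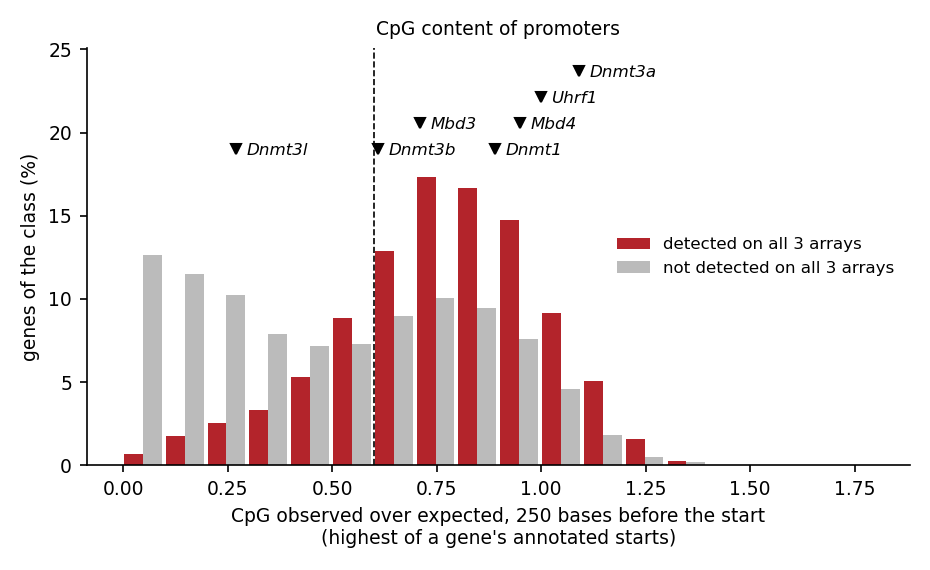
Percent of genes (vertical axis) by CpG observed over expected ratio in the 250 bases before the start (horizontal axis, ratio of 0.6 dashed), for genes detected on all arrays (red) and others (grey), with triangles for 7 members at heights without meaning. *Dnmt3l*, at 0.27, is the only member to the left of the dashed line.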

How the data were processed

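RNA of the embryonic region of 3 EHF-stage samples was measured on Illumina Mouse-6 arrays, and the samples were grouped by the stage in their labels. The authors deposited log2 signals per gene symbol, not normalized between arrays, with the mean number of beads (another measure, used as depth). The standard error over beads on the linear signal scale and the detection p-value were also deposited by the authors. Partek is named, but how it was used is not given in the sources used here. No column lacked a sample.

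The number of probes per symbol was the smallest that made the bead numbers of all arrays whole (tolerance 0.002), and 664 symbols whose detection p was off the steps of 1 in 936 were not counted as having 1 probe. Combined p-values of 2 probes lay on the steps of a sum in 97.0% of values, where chance gives 4%. Averaging over probes was taken to be on the intensity scale, since averaged log2 values would put 11 to 13 symbols per array above the highest signal.

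Signals were corrected with normexp (offset 16), quantile normalized, and tested with limma 3.58.1 (R 4.3.3), one-sided. Benjamini-Hochberg adjustment was over 30854 symbols at a threshold of 0.05. A check on simulated data set all symbols without signal below background, so it does not cover genes at the edge of background, such as *Mbd1*. The table holds symbols, not probes. Figures were drawn with matplotlib 3.10.9, and other steps used pandas 2.3.3, numpy 2.4.6, and scipy 1.17.1 under Python 3.11.15. Older symbols and promoters came from RefSeq (GRCm38.p6), 5 genes being found by an older symbol and 3 not analysed here. Members and lists were chosen with earlier results of these data known. All 9 members are named, and from each list at most 4 detected genes with the highest level above background and at most 4 others in alphabetical order. Alternatives were other detection rules, offsets, normalizations, background levels, filters, and leaving out each replicate. Protein sequences were not analysed here, and some genes of the lists are counted but not reported here by name. The number of arrays limits the precision.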

Additional observations from a re-analysis of the deposited data

How the results depend on the processing

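The count of members detected was 5 under detection p-values of 0.05 and 0.001, on at least 2 arrays, and without each replicate (5 to 5), 6 by limma, and 7 on at least 1 array, which adds *Uhrf1* and *Mbd1*. The limma count was 6, and 6 to 7 over its 9 alternatives and 6 to 7 without a replicate, *Mbd1* being the gene that was added each time. The 69 related symbols gave 24 detected, 25 to 26 without a replicate, and 37 with limma, where a mean over probes is tested in place of a combined p-value. By that test oxidation and repair went from 5 to 8, other CpG-binding proteins from 3 to 6 (5 with at least 2 arrays or 1), and S-adenosylmethionine supply from 3 to 6 (7 with at least 1 array). With at least 1 array, all detected symbols went from 6357 to 10172 and germline genes from 0 to 2. With the background taken as the median of symbols with a detection p above 0.5, *Dnmt3a* and *Mbd2* turned from below it to 0.012 and 0.0067 above it, with adjusted p-values from limma of 0.451 and 0.493. The median SD of members was 0.15, 0.11 to 0.20 without a replicate, 0.28 with median scaling, and 0.087 with quantile normalization without background correction. *Mbd1* (0.33, adjusted p 0.0569) was called at 0.35 with median scaling, 0.96 against the median background, and 0.41 without replicate 3, and the other 6 members kept their sign and their side of the limma threshold. No paired analysis was possible because all 3 arrays belong to one group. Calls are limited by signal over background, and genes at the level of *Mbd1* change side with the settings.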

Other observations

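The pattern of *Uhrf1*, a high averaged signal without a detection call, was looked for in the whole table after its values were seen. At or above its lowest level of 4.64 over background on every array lay 962 symbols, of which 880 were detected on all 3 arrays. The other 82 were not, and 76 of them have several probes, 6 have no settled number of probes, and 0 have 1 probe. That 0 was fixed by how the background level was set, since a symbol of 1 probe above it always counts as detected. The share of symbols detected on all arrays was 20.9% for those with 1 probe and 21.0% for those with several. Of the related genes, also named after their values were seen, *Tdg*, *Xrcc1*, *Ehmt2*, and *Cbx5* had no detection call on any array and levels of 2.17, 2.34, 3.46, and 3.18 above background, each from an average over 2 or 3 probes.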
